A study of Arabidopsis thaliana with 24 samples.

Results

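The comparison described here is jaz4-1 against Col-0 at midday (ZT6, 6 h after dawn), across all measured genes. Its members were taken from the sample labels: the 3 libraries of jaz4-1 and the 3 of Col-0 collected at ZT6, 6 of the 24 libraries of the series. The jaz4-1 group is a line with a T-DNA insertion in JAZ4 (SALK_141628C) in the Col-0 background, and the Col-0 group is the wild type (CS60000). Both lines were grown on soil at 22 °C with a 12 h photoperiod, received no treatment, and were cut as rosettes at 3 weeks of age. Each library came from a pool of 6 rosettes described as a biological replicate. The limma p-values below use the spread between such pools, estimated over all 24 libraries and shared between lines and times. Permutation p-values use only the 6 libraries of ZT6. A single insertion line was used, so differences that come with the line and differences that come with JAZ4 cannot be told apart. RNA came from whole rosettes, where fewer cells of a type and less RNA per cell cannot be told apart.

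JAZ proteins are repressors of jasmonate signalling. They bind MYC transcription factors and recruit the NINJA and TOPLESS co-repressors. The hormone jasmonoyl-isoleucine joins them to the receptor COI1, after which they are degraded and their targets are released. Jasmonate signalling is known in rosettes for defence against chewing insects and necrotrophic fungi, for glucosinolate and anthocyanin synthesis, for restraint of growth, and for its antagonism with salicylate, the hormone of immunity against biotrophic pathogens.

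The 6 libraries held 17340311 to 22551218 reads in genes, within the 16832226 to 22644745 of the whole series. Of 14 rosette leaf markers all were measured, with a summed level of 81637 to 95646 CPM (each library's gene reads scaled to a common total) in jaz4-1, against 70014 to 81797 CPM in Col-0. The 14 root markers in the table summed to 27.5 to 33.3 CPM in jaz4-1 and 33.9 to 36.9 in Col-0, and the 11 floral markers to at most 2.24 in jaz4-1 and 2.66 in Col-0. IRT1 and LRX1 of the root list and AP1, AT3G02310 and SHP2 of the floral list were at 0 in all 6 libraries. Phloem markers summed to 218 to 223 CPM in jaz4-1, against 218 to 240 CPM in Col-0. Guard cell markers summed to 28.9 to 38.5 CPM in jaz4-1 and 42.2 to 50.6 in Col-0. Trichome markers summed to 12.2 to 23.1 CPM in jaz4-1, against 26 to 31.7 CPM in Col-0. The root, guard cell and trichome sums did not overlap between the lines, and each was lower in jaz4-1. No marker was called different, and their part in the results was not tested.

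Libraries stood apart within each line. Genes with at least 1 read numbered 20884, 19151 and 21274 in jaz4-1 and 21318, 20966 and 21863 in Col-0. Chloroplast genes took 0.316%, 0.0890% and 0.0449% of reads in jaz4-1, against 0.0334%, 0.0382% and 0.0307% in Col-0 (2-sided exact permutation p 0.1; with 3 libraries a line no smaller p can be reached). The difference between the lines also followed transcript length: the median log2 difference ran from -0.20 in the shortest sixth of genes to 0.09 in the longest, with a Spearman correlation of 0.20 across 19493 genes, which are not independent replicates. The ends of this trend were jaz4-1 replicate 2 (0.22) and Col-0 replicate 3 (-0.30), as Spearman correlations with length of each library's deviation from the mean of the 6. It moved likewise with abundance, from a median of -0.42 in the lowest sixth of genes to 0.15 in the highest. Results below are given with and without the libraries concerned. The labels used here do not say whether the libraries kept strand. Some named genes overlap another annotated gene, among them SARD1, SOBIR1, DIN10, NHL13, WRKY53, CSD1, FH7 and CPK28, the last on the same strand as its neighbour ARO2. Reads from the stretch that such genes share cannot be told apart from those of the neighbour. How the counting treated them was not checked.

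**Figure D1:**
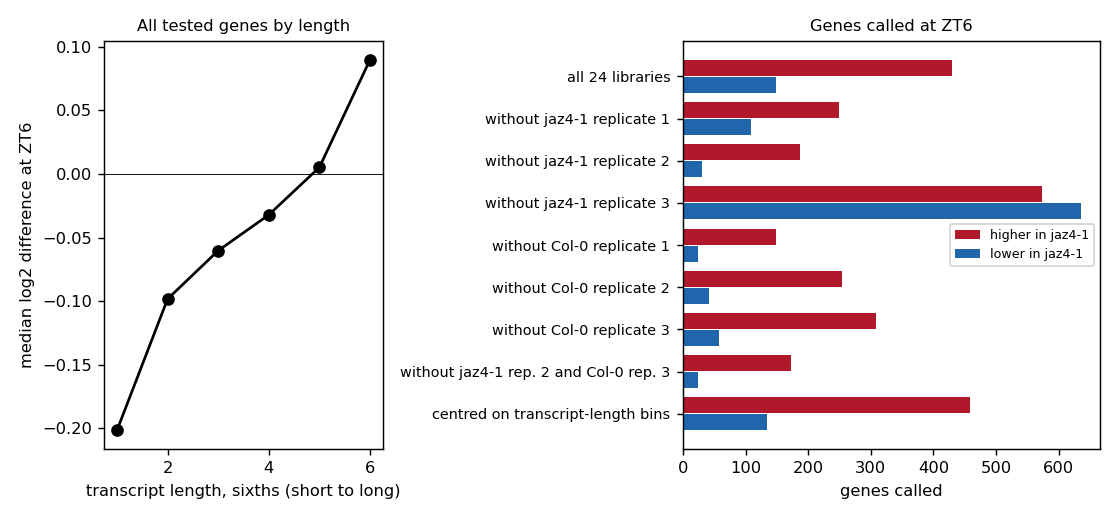
The left panel plots the median log2 difference at ZT6 (jaz4-1 minus Col-0) of the 19493 genes with a known length, in sixths by transcript length. The right panel counts the genes called at ZT6 with all 24 libraries, with single ZT6 libraries left out, and with each library centred on transcript-length bins; called genes fell to 173 without Col-0 replicate 1.

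JAZ4 itself (AT1G48500) was near the detection floor. Its reads numbered 4, 0 and 8 in jaz4-1, against 5, 5 and 5 in Col-0. Mean levels were 0.197 ± 0.182 CPM across jaz4-1 libraries and 0.242 ± 0.0290 across Col-0 libraries (SD over 3 libraries each, 2-sided exact permutation p 0.9). The ratio of jaz4-1 to Col-0 was 0.879, with a 95% counting interval of 0.376 to 2.01, so a difference in JAZ4 was not detectable at this depth and the reads do not check the genotype. The table holds a single value for JAZ4, which does not separate sequence upstream of the insertion from sequence downstream.

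In all, 578 genes (2.95% of the 19614 tested) were called different at a limma adjusted p under 0.05. Of these, 429 (2.19%) were higher and 149 (0.76%) lower in jaz4-1. The 3 libraries of each line did not overlap for 575 of the called genes, against 26.8% of all tested genes. The called genes were chosen on these same values, so their lack of overlap is no separate support. The median of all tested genes was -0.04 on the log2 scale. Called genes higher in jaz4-1 had a median log2 difference of 0.81 and those lower a median of -0.99. The edgeR quasi-likelihood test on the recovered reads called 442 higher and 90 lower. With the 6 ZT6 libraries fitted alone, limma called 489 genes, of which 313 were among the 578.

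The number of calls moved with every single ZT6 library. It was 358 (1.83%), 218 (1.11%) and 1208 (6.16%) when jaz4-1 replicate 1, 2 or 3 was left out, and 173 (0.882%), 296 (1.51%) and 366 (1.87%) when Col-0 replicate 1, 2 or 3 was left out. The balance of directions turned with 1 library: without jaz4-1 replicate 3, 573 genes were higher and 635 lower. Without jaz4-1 replicate 2 and Col-0 replicate 3 together, 172 genes were higher and 24 lower (0.999% of those tested in all). With each library centred on its median within 20 transcript-length bins, 458 were higher and 134 lower. A core of 136 genes (120 higher and 16 lower) was called with all 6 libraries and with each of the 6 left out in turn, and a gene below is said to have kept its call only where it belongs to that core.

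**Figure D2:**
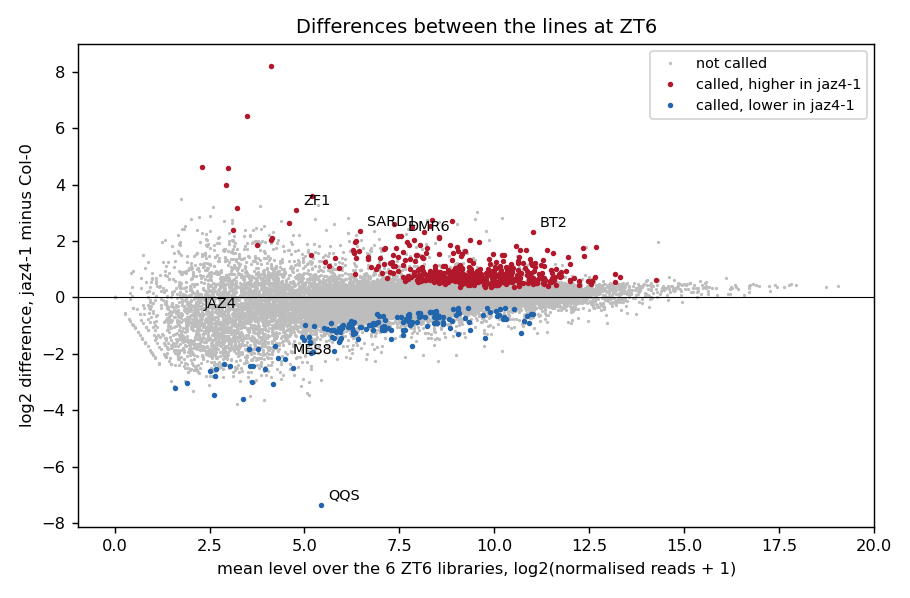
Each point is 1 of the 19614 tested genes, with its mean level over the 6 ZT6 libraries on the horizontal axis and its log2 difference (jaz4-1 minus Col-0) on the vertical axis. With all libraries 429 called genes are higher and 149 lower in jaz4-1, against 573 and 635 without jaz4-1 replicate 3, and QQS lies at -7.36.

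Immunity genes rose in several lists. Salicylate drives resistance to biotrophic pathogens, and pattern receptors at the cell surface sense microbial molecules and signal through kinases and reactive oxygen. SARD1 (AT1G73805), a transcription factor that activates salicylate synthesis genes, had 277, 171 and 165 normalised reads in jaz4-1, against 19.6, 39.9 and 69.7 in Col-0. Every jaz4-1 library lay above every Col-0 library, and the log2 difference was 2.35 ± 0.39 (SE, limma adjusted p 0.00178). DMR6 (AT5G24530), an oxygenase that hydroxylates salicylate, had 428, 384 and 363 normalised reads in jaz4-1, against 53.7, 71.8 and 165 in Col-0 (2.17 ± 0.41, limma adjusted p 0.0052). Both kept their call.

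These were the 2 called members of the 12 tested genes of salicylate synthesis and control, whose median difference was 0.30. Over all tested genes 2.19% were called higher. ICS1, the main isochorismate synthase, had a log2 difference of 0.34 and PBS3 of 0.00, and neither passed the test. UGT76B1, a glycosyltransferase of this list, was at -2.17 without passing it. Of 12 receptors and hubs, the salicylate receptors NPR3 (1.32 ± 0.25, limma adjusted p 0.00423) and NPR4 (0.58 ± 0.12, limma adjusted p 0.0127) rose, and 11 of the 12 had a positive difference, against 46% of all tested genes. NPR3 kept its call. NPR4 lost it without jaz4-1 replicate 1 or 2 or Col-0 replicate 1, where its limma adjusted p reached 0.0845. NPR1, EDS1 and PAD4, at 0.45, 0.41 and 0.02, did not pass.

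Among 14 pathogenesis-related and immune output genes 5 rose, against 2.19% of all genes, with a list median of 0.83. WRKY54 (AT2G40750) had 205, 158 and 137 normalised reads in jaz4-1, against 23.8, 32.8 and 81.7 in Col-0, and kept its call (2.01 ± 0.36, limma adjusted p 0.00301). Its relatives WRKY53 and WRKY70, both regulators of leaf defence and senescence, rose by 1.64 ± 0.39 and 1.3 ± 0.31, and NHL13, an NDR1/HIN1-like protein, by 2.77 ± 0.65. PCC1, a pathogen-responsive gene under circadian control, rose by 2.53 ± 0.64 although its lines overlapped, with 999, 432 and 991 normalised reads in jaz4-1, against 71.3, 61.2 and 499 in Col-0. PR1, PR2 and PR5, the usual markers of salicylate response, were at -0.20, 0.92 and 0.45 and did not pass the test. WRKY53, WRKY70 and NHL13 lost their calls without jaz4-1 replicate 1 or 2 or Col-0 replicate 1 or 2, with limma adjusted p up to 0.143, 0.155 and 0.132, and PCC1 lost its call without any ZT6 library other than Col-0 replicate 3 (up to 0.161). The list held 1 call after dropping any of those 4 libraries, 4 after dropping jaz4-1 replicate 3 and 5 after dropping Col-0 replicate 3.

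**Figure D3:**
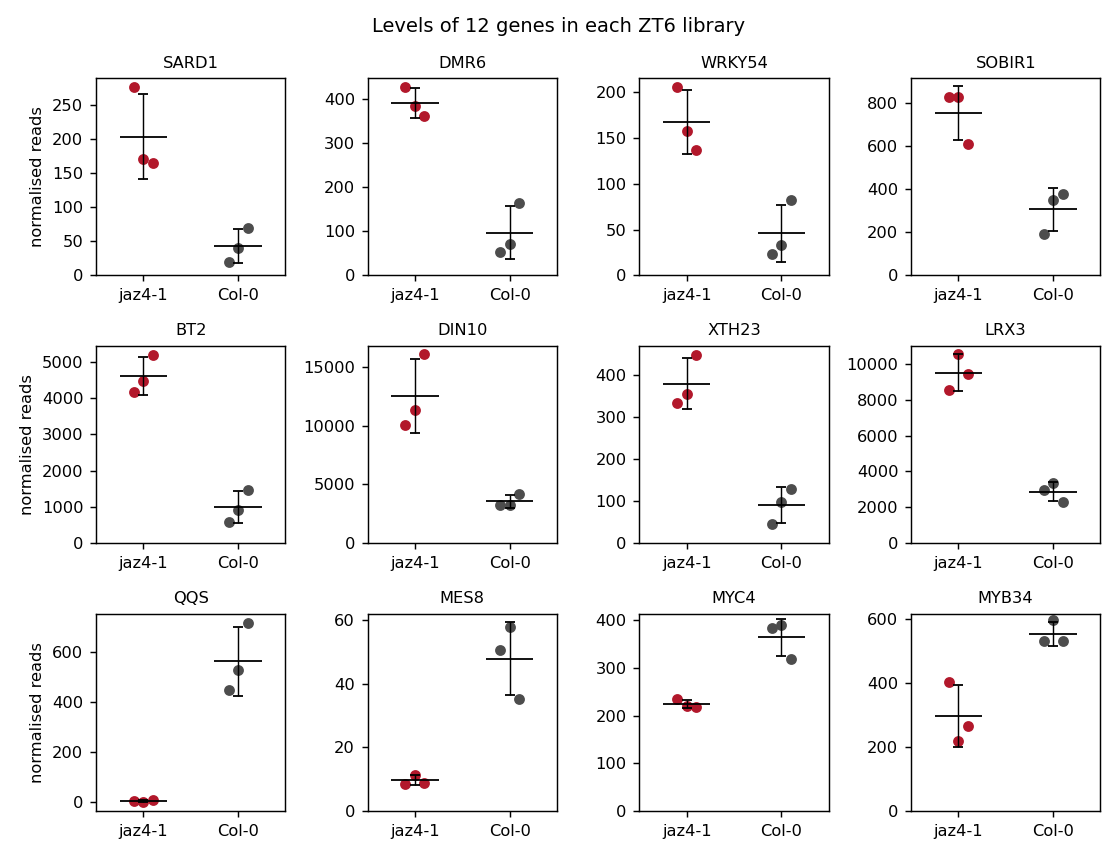
Normalised reads of 12 genes in each ZT6 library, with jaz4-1 left of Col-0 in every panel; points are libraries, and lines and bars give the mean and SD of 3. The lines do not overlap in any panel, and most of these genes were named by a rule that asked for no overlap. SARD1 lies at 165 to 277 in jaz4-1 against 19.6 to 69.7 in Col-0.

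Pattern receptors and their signalling partners rose as 7 of 24 tested, against 2.19% of all genes. Of the 24, 23 had a positive difference (46% of all genes), with a median of 0.42. SOBIR1 (AT2G31880), the adaptor kinase of receptor-like proteins, had 829, 828 and 610 normalised reads in jaz4-1, against 191, 352 and 376 in Col-0 (1.35 ± 0.21, limma adjusted p 0.000991). LYK5, the chitin receptor kinase, rose by 1.61 ± 0.30, BIR1, which restrains SOBIR1, by 0.98 ± 0.16, and CPK28, a calcium-dependent kinase that limits BIK1, by 1.03 ± 0.18, and all 4 kept their calls. MPK3 (0.91), the NADPH oxidase RBOHD (0.60) and CPK5 (0.36) also rose. MPK3 lost its call without Col-0 replicate 1, RBOHD without jaz4-1 replicate 1 or 2 or Col-0 replicate 2 or 3, and CPK5 without jaz4-1 replicate 2 or 3 or Col-0 replicate 1 or 2, with limma adjusted p up to 0.0716, 0.108 and 0.176. The flagellin receptor FLS2, its partner BAK1 and the kinase BIK1, at 0.39, 0.18 and 0.62, did not pass. The number of calls in the list was 6, 5 and 6 without jaz4-1 replicate 1, 2 and 3, and 5, 5 and 6 without Col-0 replicate 1, 2 and 3.

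Grouped by the protein domain written in the deposited table, TIR-domain genes, most of which encode intracellular immune receptors, held 20 higher calls among 78 tested. The share of 25.6% stood against 2.19% of all genes, and 69 of the 78 differences were positive, with a median of 0.52. AT5G41740 had 901, 769 and 696 normalised reads in jaz4-1, against 160, 146 and 232 in Col-0 (2.15 ± 0.29, limma adjusted p 0.000301). SNC1, a TIR receptor gene in which a gain-of-function allele causes autoimmunity, rose by 0.60 ± 0.16, and its call was left only without jaz4-1 replicate 3 (limma adjusted p up to 0.215 otherwise). AT5G41740 kept its call. TIR calls numbered 13, 11 and 26 without jaz4-1 replicate 1, 2 and 3, and 10, 14 and 17 without Col-0 replicate 1, 2 and 3. The median TIR transcript was 3765 bases against 1735 over all genes, and 16 TIR genes were higher after centring on length bins. Without jaz4-1 replicate 2 and Col-0 replicate 3 together, 8 TIR genes were higher.

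Of 61 genes with an NB-ARC domain as their listed domain, 8 rose (13.1%, against 2.19% of all genes) and 1 fell (1.64%, against 0.76%). Among those that rose was the helper receptor ADR1-L2 (1.01 ± 0.19, limma adjusted p 0.0052). The median NB-ARC transcript was 3414 bases, against 1735 over all genes. NB-ARC genes higher were 3, 5 and 11 without jaz4-1 replicate 1, 2 and 3, and 2, 3 and 4 without Col-0 replicate 1, 2 and 3. U-box ubiquitin ligases rose as 9 of 43 (20.9%, against 2.19% of all genes). They included PUB11 (1.06 ± 0.17, limma adjusted p 0.00095) and CMPG1 (1.74 ± 0.46, limma adjusted p 0.0408). The U-box count was 5, 3 and 8 without jaz4-1 replicate 1, 2 and 3, and 3, 6 and 5 without Col-0 replicate 1, 2 and 3. ADR1-L2 reached a limma adjusted p of 0.0529 without Col-0 replicate 1, PUB11 kept its call, and CMPG1 lost it without any one of the 6 libraries (up to 0.169).

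Genes of the Pkinase domain held 29 higher and 3 lower calls of 538 tested, and those of the Pkinase_Tyr domain 19 higher and 1 lower of 265. The higher shares were 5.39% and 7.17%, against 2.19% of all genes, and the lower shares 0.558% and 0.377%, against 0.76%. They included THE1 (1.2 ± 0.19) and FER (0.69 ± 0.13), receptor kinases that sense the cell wall, and the peptide receptors PEPR1 (0.70 ± 0.14) and MIK2 (1.19 ± 0.16). THE1, FER and MIK2 kept their calls, and PEPR1 lost it without jaz4-1 replicate 2 or Col-0 replicate 1 (limma adjusted p up to 0.0646). Higher Pkinase genes numbered 18, 13 and 37 without jaz4-1 replicate 1, 2 and 3, and 13, 19 and 20 without Col-0 replicate 1, 2 and 3. For Pkinase_Tyr they numbered 14, 15 and 21 without jaz4-1 replicate 1, 2 and 3, and 12, 14 and 19 without Col-0 replicate 1, 2 and 3. Without jaz4-1 replicate 2 and Col-0 replicate 3 together, 4 NB-ARC, 2 U-box, 13 Pkinase and 16 Pkinase_Tyr genes were higher. After centring on length bins, 4 NB-ARC, 8 U-box, 23 Pkinase and 19 Pkinase_Tyr genes were higher. These families and their members were chosen after their values were seen.

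**Figure D4:**
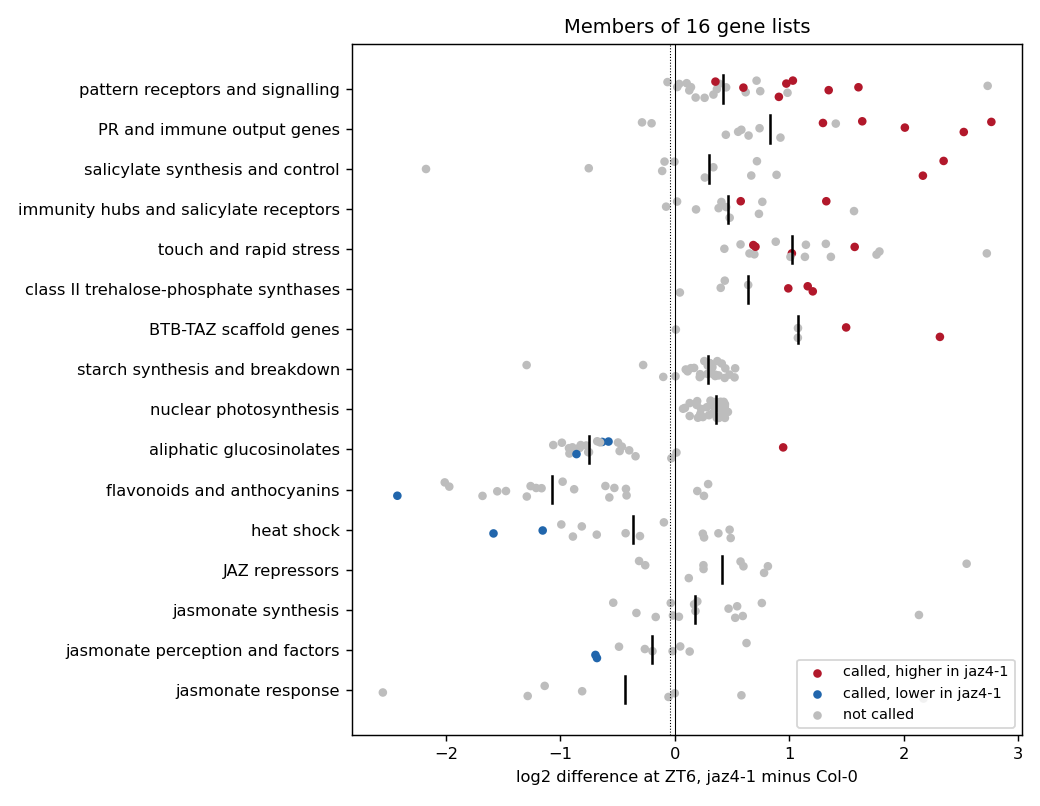
Each point is a tested member of 1 of 16 gene lists, placed by its log2 difference at ZT6 (jaz4-1 minus Col-0), with a bar at the list median and a dotted line at the median of all tested genes (-0.04). Immune, touch and BTB-TAZ members lie mostly to the right, and aliphatic glucosinolate and flavonoid members mostly to the left; vertical scatter has no meaning.

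Genes of touch and rapid stress, a set induced within minutes by handling, wounding or elicitors, rose as 4 of 17 tested (2.19% of all genes). All 17 differences were positive (46% of all genes), with a median of 1.02. Of the 17, 13 did not overlap between the lines on the higher side, against 13.9% of all genes. SZF1 (AT3G55980), a zinc finger protein, had 5555, 5398 and 4610 normalised reads in jaz4-1, against 1001, 1979 and 2648 in Col-0 (1.57 ± 0.38, limma adjusted p 0.0312). The calmodulin-like gene TCH2 (1.02 ± 0.28), the syntaxin SYP121 (0.69 ± 0.15) and the repressor ERF4 (0.71 ± 0.19) were the others. WRKY40, TCH4 and ERF11, at 1.76, 1.79 and 2.73, did not pass. The list held no call after dropping jaz4-1 replicate 2, Col-0 replicate 1 or Col-0 replicate 2, and 1 after dropping jaz4-1 replicate 1. It held 4 after dropping jaz4-1 replicate 3 and 5 after dropping Col-0 replicate 3.

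ZF1 (AT5G67450), another zinc finger gene, had the largest difference among higher genes with a symbol and at least 1 CPM, 3.1 ± 0.82 (limma adjusted p 0.0408). It had 61.5, 85.9 and 92.7 normalised reads in jaz4-1, against 7.23, 4.43 and 17.2 in Col-0. Its call was lost without any one of the ZT6 libraries other than Col-0 replicate 3 (limma adjusted p up to 0.143).

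Upstream sequences are shown for 4 genes that rose. The set spans immune, touch, cytoskeletal and scaffold genes and was picked for holding the motifs searched. Each window is the 250 bases before the annotated gene start, read from the RefSeq assembly TAIR10.1 and written 5′ to 3′ in the gene's direction. WRKY53 lies at chr4:12393983-12394232 on the minus strand, TCH2 at chr5:14999620-14999869 on the minus strand, FH7 at chr1:22057269-22057518 on the minus strand and BT2 at chr3:17910739-17910988 on the minus strand. No window holds an annotated exon of another gene. Capitals mark any match, on either strand, to TTGACC or TTGACT (the W-box bound by WRKY factors), CGCGTT (an element of rapid stress genes), CACGTG (the G-box), AAATATCT (the core of the evening element) or AAACCCTA (the telo-box).
WRKY53: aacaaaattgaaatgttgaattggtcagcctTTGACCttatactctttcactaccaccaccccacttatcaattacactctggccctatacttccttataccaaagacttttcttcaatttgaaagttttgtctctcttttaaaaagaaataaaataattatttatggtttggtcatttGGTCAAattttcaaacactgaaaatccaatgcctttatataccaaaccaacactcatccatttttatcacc
TCH2: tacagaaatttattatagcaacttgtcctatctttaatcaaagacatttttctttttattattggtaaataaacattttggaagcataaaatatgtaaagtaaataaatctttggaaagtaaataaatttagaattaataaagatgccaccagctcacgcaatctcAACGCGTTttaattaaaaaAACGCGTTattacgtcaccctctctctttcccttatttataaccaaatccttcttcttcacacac
FH7: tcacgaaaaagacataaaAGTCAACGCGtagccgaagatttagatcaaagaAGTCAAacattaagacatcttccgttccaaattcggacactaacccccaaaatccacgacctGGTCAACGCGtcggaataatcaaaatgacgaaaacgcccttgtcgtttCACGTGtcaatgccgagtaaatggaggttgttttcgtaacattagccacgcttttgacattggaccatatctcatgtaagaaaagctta
BT2: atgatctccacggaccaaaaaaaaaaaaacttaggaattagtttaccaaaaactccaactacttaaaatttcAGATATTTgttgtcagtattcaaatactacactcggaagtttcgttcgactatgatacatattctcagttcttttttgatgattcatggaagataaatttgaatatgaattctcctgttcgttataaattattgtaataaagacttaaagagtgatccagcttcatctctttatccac

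The W-box occurred 2 times in the WRKY53 window. TCH2 held 4 matches to CGCGTT, since AACGCGTT reads as the motif on both strands. In FH7, 2 of the 3 W-boxes overlapped a match to CGCGTT. Over 19489 windows of tested genes, CGCGTT was present in 32 of 429 genes higher in jaz4-1 (7.46%), in 1 of 149 lower genes (0.671%) and in 2.78% of all windows. The W-box was present in 38.2% of higher, 24.2% of lower and 27.8% of all windows. The share with CACGTG was 7.69% of higher, 9.40% of lower and 7.33% of all windows. AAATATCT was in 7.69% of higher, 3.36% of lower and 5.02% of all windows, and AAACCCTA in 2.80% of higher, 3.36% of lower and 3.67% of all windows. A match is a description of these letters only, and the motifs overlap where stated.

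Sugar and energy genes rose in small numbers. Class II trehalose-phosphate synthases respond to sugar status and are thought to have regulatory rather than catalytic roles. Of 7 tested, 3 were higher (2.19% of all genes) and all 7 positive (46% of all genes), with a median of 0.64. TPS8 (AT1G70290) had 5935, 6920 and 5825 normalised reads in jaz4-1, against 2206, 2962 and 2976 in Col-0 (1.21 ± 0.29, limma adjusted p 0.0251), and TPS9 and TPS11 rose by 0.99 ± 0.22 and 1.16 ± 0.26. The family held no call after dropping jaz4-1 replicate 2 or Col-0 replicate 1, 1 call after dropping jaz4-1 replicate 1, and 2 after dropping Col-0 replicate 2 or 3.

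BT2 (AT3G48360), a BTB-TAZ scaffold protein that responds to sugar and nitrogen status, had 4157, 4475 and 5200 normalised reads in jaz4-1, against 585, 916 and 1455 in Col-0. The log2 difference was 2.32 ± 0.29 (limma adjusted p 0.000221) and kept its call. BT4, of the same family of 5, rose by 1.5 ± 0.32 and lost its call without jaz4-1 replicate 2 or Col-0 replicate 1 or 2 (limma adjusted p up to 0.10). DIN10 (AT5G20250), a dark-inducible gene of the raffinose synthase family, had 10108, 11374 and 16137 normalised reads in jaz4-1, against 3214, 3287 and 4202 in Col-0 (1.79 ± 0.29, limma adjusted p 0.00178). It was the only called gene of 13 low-energy genes, in which DIN6 was at 1.48 and DIN2 at -2.40 without passing.

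Genes with roles at the cell wall were among the largest differences. LRX3 (AT4G13340), a leucine-rich repeat extensin, had 8530, 10574 and 9452 normalised reads in jaz4-1, against 2975, 3335 and 2278 in Col-0 (1.75 ± 0.31, limma adjusted p 0.00324). The pectin methylesterase gene ATPMEPCRB (AT4G02330) had 534, 514 and 576 in jaz4-1, against 54.7, 100 and 156 in Col-0 (2.5 ± 0.43, limma adjusted p 0.00243). Both kept their calls. Of 32 xyloglucan endotransglucosylase and expansin genes, the main test called XTH23 (2.17 ± 0.48) and XTH30 (1.19 ± 0.28) higher (2.19% of all genes) and none lower. The list was split, with 17 positive and 15 negative differences. On the higher side 11 did not overlap (13.9% of all genes), and on the lower side 4 (12.9%). Calls were 5 higher and 2 lower by DESeq2 and with the ZT6 libraries alone, and 3 higher and 1 lower without Col-0 replicate 3. XTH23 lost its call without jaz4-1 replicate 2 or Col-0 replicate 1 (limma adjusted p up to 0.103), and XTH30 without jaz4-1 replicate 2 or any Col-0 library (up to 0.109).

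Other members of the 15 largest differences were PLIP2, a plastid lipase gene (2.03 ± 0.38), OFUT20, of the O-fucosyltransferase family (1.87 ± 0.24), IPT1, a cytokinin synthesis gene (2.06 ± 0.47), and the RPW8 homologs HR3 (2.11 ± 0.58) and HR4 (1.76 ± 0.47). PLIP2 and OFUT20 kept their calls, and IPT1 lost its call without jaz4-1 replicate 2 or Col-0 replicate 1 or 2 (limma adjusted p up to 0.09). HR3 and HR4 were called without Col-0 replicate 3 and lost it without any other ZT6 library, with limma adjusted p up to 0.160 and 0.189.

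Single members rose in further lists, where 2.19% of all tested genes were called higher and 0.76% lower. They were PIF5, a light-regulated growth factor (0.78 ± 0.15, limma adjusted p 0.00643), PP2CA, a phosphatase that restrains abscisic acid signalling (0.96 ± 0.19, limma adjusted p 0.00699), CAMTA3, a calmodulin-binding transcription factor that represses immune genes (0.64 ± 0.12, limma adjusted p 0.00423), and CKX7, a cytokinin oxidase (0.60 ± 0.13, limma adjusted p 0.0102). PIF5 and CAMTA3 kept their calls, CKX7 reached a limma adjusted p of 0.0515 without jaz4-1 replicate 2, and PP2CA reached 0.0736 without Col-0 replicate 1. The clock repressor CHE (0.58 ± 0.14) was the only called gene of 28 clock genes. The floral repressors RAV1 (0.94 ± 0.21) and TEM2 (1.16 ± 0.32) rose and the MADS factor AGL15 fell, of 26 flowering genes. CHE and TEM2 were left called only without jaz4-1 replicate 3 (limma adjusted p up to 0.125 and 0.223 otherwise), and RAV1 lost its call without jaz4-1 replicate 1 or Col-0 replicate 1 or 2 (up to 0.0970).

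QQS (AT3G30720), a gene known for its effect on starch and protein content, showed the largest difference of all genes that fell. It had 3.69, 0 and 7.13 normalised reads in jaz4-1, against 446, 527 and 714 in Col-0. The log2 difference was -7.36 ± 0.72 (limma adjusted p 1.5e-05), and 11 recovered reads stood against 1979. MES8 (AT2G23590), of the methylesterase family, had 8.61, 11.4 and 8.91 normalised reads in jaz4-1, against 50.6, 57.6 and 35.2 in Col-0 (-2.18 ± 0.29, limma adjusted p 0.00029). Both kept their calls.

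Among genes with a symbol, at least 1 CPM and no overlap, the others of the 15 lowest lost their calls when single libraries were left out. CSD1, the cytosolic copper/zinc superoxide dismutase (AT1G08830), had 563, 259 and 980 normalised reads in jaz4-1, against 1466, 1145 and 1725 in Col-0 (-1.44 ± 0.38, limma adjusted p 0.0426). AGL15 (-2.13), RBK1 (-1.98), a ROP-binding kinase, TRM28 (-1.38), UMAMIT11 (-1.28), of the amino acid transporter family, and NAI2 (-1.29), needed for ER bodies, fell too. Those 6 lost their calls without jaz4-1 replicate 1 or 2 or any Col-0 library, with a limma adjusted p of 0.236 for CSD1 and up to 0.243 for TRM28 without jaz4-1 replicate 2. HB28 (-1.94), VLN5 (-1.72), an actin-bundling villin, BNQ2 (-1.45), AEL1 (-1.61), HTT3 (-1.91) and LSH6 (-1.26) fell, and were called without only 1 to 3 of the 6 libraries.

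Aliphatic glucosinolate genes lay lower in jaz4-1 as a group, at a median of -0.75, with 23 of 25 tested differences negative against 54% of all genes. Glucosinolates are sulfur-rich defence compounds, and jasmonate signalling raises the expression of their synthesis genes. Of the 25, 21 did not overlap between the lines on the lower side, against 12.9% of all genes. By the main limma test 3 fell (0.76% of all genes) and 1 rose (2.19% of all genes). Lower calls numbered 3 by edgeR, 6 by limma-voom, 10 by DESeq2 and 9 with the ZT6 libraries alone. MYB28 (AT5G61420), the main activator of the aliphatic pathway, had 1063, 801 and 850 normalised reads in jaz4-1, against 1363, 1545 and 1283 in Col-0 (-0.63 ± 0.15, limma adjusted p 0.0192). SUR1, the C-S lyase shared by all glucosinolate classes (-0.58 ± 0.15), and FMOGS-OX1, which oxidises side chains (-0.86 ± 0.23), fell, and the transporter gene GTR1 rose (0.95 ± 0.25).

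The list held no lower call after dropping jaz4-1 replicate 2, Col-0 replicate 1 or Col-0 replicate 2, and 1 after dropping jaz4-1 replicate 1. It held 2 after dropping Col-0 replicate 3, where SUR1 and FMOGS-OX1 were not among them, and 6 after dropping jaz4-1 replicate 3. GTR1 was left in the count without jaz4-1 replicate 3 alone. Without jaz4-1 replicate 2 and Col-0 replicate 3 the list median was -0.69, with no call. CYP79F1, MAM1 and BCAT4, which build the side chain and the core, were at -0.86, -0.83 and -0.77 and did not pass the test.

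In the indole branch MYB34 (AT5G60890), an activator of indole glucosinolate synthesis, had 405, 217 and 266 normalised reads in jaz4-1, against 532, 596 and 531 in Col-0. It fell by 0.95 ± 0.17 on the log2 scale (limma adjusted p 0.00392) and kept its call, as the only called gene of 14. Among 20 sulfate assimilation genes APR1, the adenylyl-sulfate reductase, fell (-0.57 ± 0.13, limma adjusted p 0.0212). Its call was lost without jaz4-1 replicate 2, Col-0 replicate 1 or Col-0 replicate 2 (limma adjusted p up to 0.115).

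Flavonoid and anthocyanin genes had a median of -1.07 over 20 tested. Of these, 17 were negative (54% of all genes) and 14 did not overlap on the lower side (12.9% of all genes). Lower calls numbered 0 by edgeR and by limma-voom, 4 by DESeq2 and 4 with the ZT6 libraries alone. By the main limma test only MYB111 (AT5G49330), an activator of flavonol synthesis, fell. It had 9.84, 0 and 11.6 normalised reads in jaz4-1, against 22.7, 25.7 and 32.2 in Col-0 (-2.42 ± 0.61, limma adjusted p 0.0327), and its call was lost without jaz4-1 replicate 2 or any Col-0 library (up to 0.115). DFR, LDOX and TT8 of the anthocyanin branch were at -1.26, -1.47 and -1.21 and did not pass. Of 14 heat shock genes, the small heat shock gene HSP18.2 (-1.58 ± 0.37) and HSP70-2 (-1.15 ± 0.30) fell, against 0.76% of all genes. Both calls were lost without any one of the ZT6 libraries other than jaz4-1 replicate 3.

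Proteasome subunit genes fell as 3 of 24 (12.5%, against 0.76% of all genes). Of the 24 differences, 23 were negative (54% of all genes), with a median of -0.22. Histone genes fell as 2 of 32 (6.25%), HTA10 (-0.89) and RAT5 (-0.86), with 31 negative differences and a median of -0.46. Both families have short transcripts, at medians of 1231 and 841 bases. After centring on length bins the calls were 0 and 2, and without jaz4-1 replicate 2 neither family held a call. Proteasome calls were 0 without each ZT6 library other than jaz4-1 replicate 3, without which they were 4. Histone calls were 1 after dropping jaz4-1 replicate 1 or Col-0 replicate 3, and 2 after dropping either other Col-0 library. Dropping jaz4-1 replicate 3 gave 7. The 3 proteasome genes were PAB1 (-0.39), PBB1 (-0.38) and PBD2 (-0.37). Lower proteasome calls numbered 1 by edgeR, 1 by limma-voom, 3 by DESeq2 and 0 with the ZT6 libraries alone. Lower histone calls numbered 2 by edgeR, 2 by limma-voom, 4 by DESeq2 and 1 with the ZT6 libraries alone.

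The jasmonate lists held few calls. None of 10 tested JAZ repressors, 15 synthesis genes, 9 catabolism genes or 8 response genes was called by the main limma test. Of them 3, 3, 0 and 2 were at an unadjusted p under 0.05 (20.4% of all tested genes), with 0 calls in each list by edgeR and DESeq2. With the ZT6 libraries alone 1 synthesis gene was called higher and 1 response gene lower. Positive differences numbered 8, 10, 6 and 3 (46% of all genes), with medians of 0.41, 0.18, 0.30 and -0.43. Those not overlapping on the higher side numbered 4, 3, 1 and 0 (13.9% of all genes), and on the lower side 1, 1, 0 and 2 (12.9%). Values in these lists included JAZ7 at 2.55, LOX4 at 2.13 and TAT3 at 2.17, and VSP2 and VSP1, the vegetative storage proteins induced by jasmonate, were at -1.14 and -0.81. Of 9 perception and transcription factor genes, 2 fell (0.76% of all genes). MYC4 (AT4G17880), a bHLH activator that JAZ proteins bind, had 235, 220 and 218 normalised reads in jaz4-1, against 383, 391 and 319 in Col-0 (-0.69 ± 0.14, limma adjusted p 0.00641) and kept its call. JAM2, a bHLH repressor of jasmonate responses, fell by 0.68 ± 0.19 (limma adjusted p 0.0497) and lost its call without jaz4-1 replicate 2 or 3 or Col-0 replicate 1 or 2 (up to 0.247). COI1 and MYC3 were at 0.13 and 0.05.

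No photosynthesis or starch gene was called. All 36 tested nuclear photosynthesis genes had a positive difference, between 0.07 and 0.47 with a median of 0.36, and 22 did not overlap between the lines on the higher side, against 13.9% of all genes, with no call (limma; 12 at an unadjusted p under 0.05, 0 by edgeR and 0 by DESeq2). The median was 0.42 after centring on length bins, 0.34 without jaz4-1 replicate 2 and 0.21 without that library and Col-0 replicate 3. All tested genes in the highest sixth by level had a median of 0.15. Of 28 starch genes 25 were positive, 10 did not overlap on the higher side (13.9% of all genes) and 2 on the lower (12.9%), with a median of 0.29 and no call by limma or edgeR (9 at an unadjusted p under 0.05, 4 called by DESeq2). Auxin-responsive, senescence and iron deficiency genes also held no call by limma or edgeR, with medians of -0.27, 0.23 and -0.06, 6, 2 and 2 genes at an unadjusted p under 0.05, and 1 call each by DESeq2.

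Nitrate, calmodulin-like and cold genes held 1 call each, HHO3, TCH2 and CAMTA3. HHO3, a GARP repressor of nitrate and phosphate responses, rose by 0.73 ± 0.20 (limma adjusted p 0.0461) and lost its call without jaz4-1 replicate 1 or 3 or Col-0 replicate 1 or 2 (up to 0.198). In all, 49 of the 575 tested genes in the 32 lists were called, 38 higher and 11 lower. Over all tested genes 2.95% were called, 2.19% higher and 0.76% lower. The lists were chosen with earlier results of these data known, and 9 of them held no call.

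Of the 578 genes, 7 were called at ZT0, ZT6, ZT12 and ZT18 alike, each with the same sign at every time. AT3G05945 had 289, 321 and 282 normalised reads in jaz4-1 and none in Col-0 at ZT6, at least 295-fold higher by reads (floor of 3 reads over the group). AT1G64795 was at least 23.8-fold higher on the same floor. AT1G75945 held 283 reads against 1 (ratio 311, 95% counting interval 55.4 to 12325), AT5G15420 102 against 3 (37.4, 12.4 to 184) and AT3G29644 350 against 36 (10.7, 7.57 to 15.5). QQS and MES8 were the other two, lower at every time. These loci carry no symbol except QQS and MES8, and were chosen after their values were seen.

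The ZT6 difference was then set against the mean of the differences at ZT0, ZT12 and ZT18, which use other libraries. The test called 40 genes (0.204% of 19614), 39 (0.199%) with a more positive difference at ZT6 and 1 (0.0051%) more negative. Of the 578 genes called at ZT6, 39 (6.75%) were called in this test. Genes higher at ZT6 had a median log2 difference of 0.81 at ZT6, against 0.22, 0.20 and 0.07 at ZT0, ZT12 and ZT18, and these genes were chosen on their ZT6 values. For the genes lower at ZT6 the medians were -0.99, against -0.28, -0.18 and -0.12.

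The largest contrasts among genes with a symbol were those of OFUT20 (1.76 ± 0.28, limma adjusted p 0.00689), BT2 (1.63 ± 0.33, limma adjusted p 0.043), PUP18 (1.46 ± 0.26, limma adjusted p 0.0196) and TRFL8 (1.38 ± 0.23, limma adjusted p 0.012). PUP18, a purine permease gene, had 2967, 3410 and 3404 normalised reads in jaz4-1, against 710, 971 and 1539 in Col-0. FH7, an actin-nucleating formin (1.09 ± 0.23), SHV3, a wall-associated protein (1.07 ± 0.22), PATL2, a patellin (1.01 ± 0.21), and PUB11 (1.00 ± 0.19) followed. BT2 had log2 differences of 0.23, 2.32, 1.89 and -0.04 at ZT0, ZT6, ZT12 and ZT18, so ZT12 lay close to ZT6. PUB11 lay at 1.06 at ZT6 and at 0.07, 0.07 and 0.06 at ZT0, ZT12 and ZT18.

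**Figure D5:**
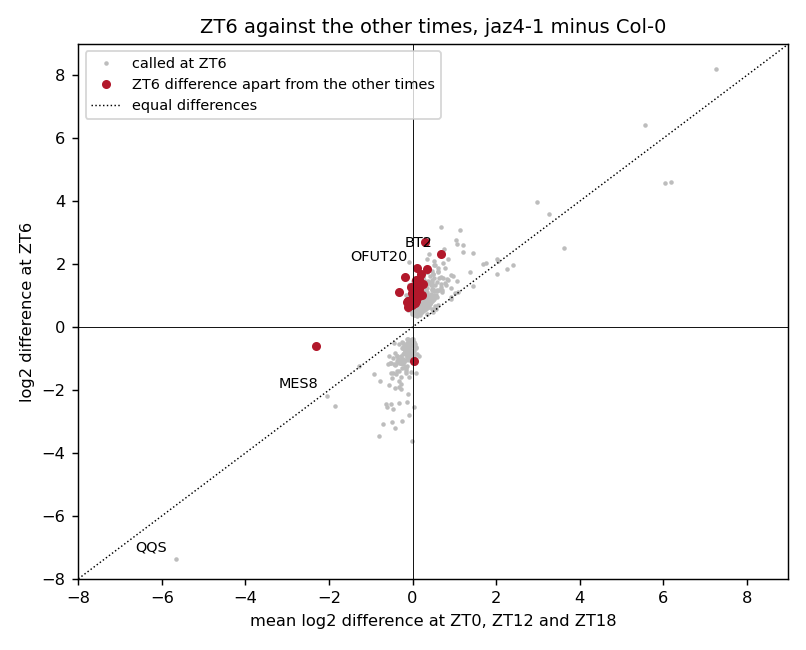
Each point is a gene called at ZT6 or in the test against the other times, with its log2 difference at ZT6 on the vertical axis and the mean of its differences at ZT0, ZT12 and ZT18 on the horizontal axis; the dotted line marks equal differences. The 40 genes that stand apart are large points, 39 of them above the line. MES8 lies near it, and QQS lies below it by 1.69 without passing the test.

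In the opposite direction AT3G25590 fell at ZT6 (-1.08) more than at the other times, with a contrast of -1.12. AT1G13650, not called at ZT6 (-0.61), lay at -3.24, -1.50 and -2.18 at ZT0, ZT12 and ZT18, with a contrast of 1.7. SARD1, DMR6 and WRKY54, at 0.90, 0.15 and 0.32, did not pass the test against the other times. The count of genes standing apart was 39, 10 and 39 without jaz4-1 replicate 1, 2 and 3, and 7, 24 and 27 without Col-0 replicate 1, 2 and 3 of ZT6, and 6 of the 40 were called in each case.

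In the authors' deposited table, 1266 of 18337 genes with an adjusted p at ZT6 were under 0.05, 872 higher and 394 lower in jaz4-1, and 492 of them were also called by limma here. The authors' deposited table gives log2 fold changes of -4.77 for QQS, 1.53 for SARD1, 1.90 for BT2 and -0.63 for MYC4. The limma fit here gave -7.36, 2.35, 2.32 and -0.69, each larger in size. How the authors' fold changes were computed was not checked.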

How the data were processed

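RNA-seq was made from rosettes of jaz4-1 and Col-0 at 4 times with 3 libraries per line and time, and the 6 libraries of ZT6 are described here. Reads were aligned with HISAT2 and counted with featureCounts on TAIR10, per the submitters' processing notes, which name no versions. The authors deposited per-library values headed RPKM, but the signal in these columns is a read count divided by 1 size factor per library, computed within each time. Multiplied back, 100% of the values lay within 0.01 of whole reads, and the factors matched the median of ratios. The log2 fold changes and the p-values in the deposited table were made by the authors, and the file headers name a Student t-test for the p-values. Whether that test gave the deposited p-values was not checked.

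The main test was limma 3.58.1 (trend, robust; R 4.3.3) on log2(value + 1) of all 24 libraries, with 1 coefficient per line and time and 16 residual degrees of freedom. Genes passing edgeR's filterByExpr (minimum count 10, total 15) were tested, 19614 of 24503, with Benjamini-Hochberg adjustment over all of them. Fold changes on this scale understate the change of low genes. The ZT6 difference was also tested against the mean of the differences at the other 3 times. edgeR 4.0.16 (quasi-likelihood), DESeq2 1.42.0 and limma-voom on recovered reads were alternatives. Intervals and floors cover counting error only.

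Named genes were JAZ4, QQS and MES8. Added to these were the 15 largest differences in each direction among called genes with a symbol, at least 1 CPM and no overlap between lines, then up to 4 called members per list by p, then up to 8 contrasts per direction against the other times. Other genes named were chosen after their values were seen. The 32 gene lists and the members were chosen with earlier results of these data known. Families were taken from the domain column of the deposited table, in place of the annotation planned. Of the gene IDs, 24297 matched RefSeq TAIR10.1, which gave transcript lengths and upstream sequence. Figures were drawn with matplotlib 3.10.9.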

Additional observations from a re-analysis of the deposited data

Results flagged for a closer look

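The difference between jaz4-1 and Col-0 at ZT6 differed from the mean of the differences at the other 3 times for 40 genes (limma adjusted p under 0.05), by a test of that contrast itself. Among genes with a symbol the contrast was 1.76 for OFUT20, 1.63 for BT2, 1.46 for PUP18, 1.38 for TRFL8, 1.09 for FH7, 1.07 for SHV3, 1.01 for PATL2 and 1.00 for PUB11 on the log2 scale. It was 1.7 for AT1G13650, whose difference was smaller in size at ZT6, and -1.12 for AT3G25590. Of these 10 genes, only AT1G13650 was called in this test without each of the 6 ZT6 libraries in turn. The count was 7 without Col-0 replicate 1 and 10 without jaz4-1 replicate 2.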

How the results depend on the processing

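With single libraries left out, calls ranged over 173 to 1208 in all, 149 to 573 higher, 24 to 635 lower, 7 to 79 apart from the other times, 16 to 65 list members and 70 to 358 members of domain families, against 578, 429, 149, 40, 49 and 198 with all libraries. DESeq2 called 1164 genes, 853 higher and 311 lower, with 140 apart, 93 in lists and 375 in families. Lower genes numbered 90 by edgeR, 84 by limma-voom and 97 with the ZT6 libraries alone. Without jaz4-1 replicate 2 and Col-0 replicate 3 of ZT6, chosen after seeing the data, 196 genes were called, 172 higher and 24 lower, with 7 apart, 27 in lists and 77 in families. The share of calls that were higher was 74.2%, against 86.1% by limma-voom, 83.1% by edgeR, 56.4% with the replicate block and 47.4% without jaz4-1 replicate 3 of ZT6. The cause of these shifts was not tested.

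With a replicate block 1319 genes were called, 744 higher and 575 lower, with 100 in lists and 407 in families. Same-numbered ZT6 libraries correlated at 0.0555, 0.128 and 0.133 in their deviations, and each library correlated best with its own number. The same held at ZT0 (0.157, 0.130 and 0.228), but not for every library at ZT12 and ZT18. The main test did not pair the samples, and whether the numbers mark shared batches was not tested. The JAZ4 difference was -1.15 to 0.36 over single libraries left out, reversed at 0.36 without jaz4-1 replicate 2 and at 0.26 without both libraries. No other named difference changed sign. Other scalings, pseudocounts and filters, and centring on length bins, chosen after seeing the data, left the total within 1.5 times. JAZ4 is limited by depth.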
